A study of Mus musculus with 20 samples.

Results

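Tnc, Tnxb, Fn1, Thbs1, Thbs2 and Thbs3 encode 2 tenascins, fibronectin and 3 thrombospondins, the large adhesive and regulatory glycoproteins that cells lay down between collagen fibres. They were taken by symbol from the RNA table, as 6 of its 25746 genes, and all 6 passed the filter on low counts that left 14968 genes for testing. Their ATAC-seq peaks were taken within each gene's span and 50 kb on either side, which gave 148 of the 143246 regions obtained by merging all peak lists. Cardiac fibroblasts were profiled before and after myocardial infarction (MI) by RNA-seq and by ATAC-seq, in which a transposase cuts accessible chromatin. The cells carried eGFP as a mark of the Tcf21 lineage and were isolated from digested mouse hearts by flow sorting. Every group, uninjured included, carried the tamoxifen-induced MerCreMer label (75 mg/kg/day for 5 days), which marks resident fibroblasts and their descendants. Uninjured hearts were compared with hearts taken at day 3, at day 7, at week 2 or at week 4 following MI, with 2 libraries per group and assay. The labels give no strain, sex or age, and no sham-operated group was analysed here.

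Fibronectin is assembled into fibrils by integrins at the cell surface, most of all by the receptor made with the integrin alpha 5 chain, and forms the provisional matrix on which collagen is later deposited. Tenascin-C is a counter-adhesive protein that is scarce in the healthy adult heart and appears at sites of injury, whereas tenascin-X, the product of Tnxb, is a protein of mature connective tissue that associates with collagen fibrils. Thrombospondin-1 and thrombospondin-2 are trimers that bind CD47, CD36 and proteases, and thrombospondin-1 can activate latent TGF-beta. Thrombospondin-3 belongs to the pentameric branch of the family, which it shares with the products of Thbs4 and Comp.

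The RNA libraries held 16397211 to 21043997 estimated read counts, and each ATAC-seq library had between 63882 and 107774 peaks on chromosomes 1 to 19 and X, most at day 3. Levels below are in CPM, counts scaled to a common library size after TMM normalization, and they are compared between groups, not between genes, since no transcript lengths were used. Whether replicate libraries stem from different animals is not labelled, and p-values here reflect only library-to-library spread, possibly technical in part. The second week 2 library stood apart, at -132.1 on principal component 3 of log2 CPM (13.3% of the variance) against -18.1 to 55.4 in the other 9. The 8 fibroblast markers summed to 25410 to 64530 CPM. The 16 macrophage and monocyte markers summed to 63.27 and 56.71 CPM in the uninjured libraries, where Itgam was at 0, and to 631.1 and 1096 at day 3, 1681 and 2993 at day 7, 471.6 and 487.5 at week 2 and 149.3 and 222.2 at week 4. The other 8 marker lists, with their lowest and highest sums over the 10 libraries, were endothelial (330.7 and 1303 CPM), pericyte and smooth muscle (81.26 and 1146), cardiomyocyte (42.57 and 184.9), platelet (6.13 and 61.58), neutrophil (0 and 23.34), erythroid (142.2 and 5984), mesothelial (4.022 and 125.8) and Schwann cell (0.2772 and 15.36).

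Promoter sequence is shown since each of the 6 genes had a merged ATAC-seq region at an annotated start held by all 10 libraries. Their RNA levels took different courses. A library held a region if any of its peaks lay in it, not only one at the start. For Tnxb, that start is not the one of the window printed below. RefSeq windows on GRCm38.p6 matched 4 of the 6 genes, and the 250 bases before the start are given 5′ to 3′ on the strand of the gene. The Tnc window lies at chr4:64047016-64047265 on the minus strand, the Tnxb window at chr17:34670285-34670534 on the plus strand, the Thbs2 window at chr17:14694263-14694512 on the minus strand and the Thbs3 window at chr3:89214930-89215179 on the plus strand. Capitals mark the single match found to the searched motifs, an AP-1 motif.
Tnc: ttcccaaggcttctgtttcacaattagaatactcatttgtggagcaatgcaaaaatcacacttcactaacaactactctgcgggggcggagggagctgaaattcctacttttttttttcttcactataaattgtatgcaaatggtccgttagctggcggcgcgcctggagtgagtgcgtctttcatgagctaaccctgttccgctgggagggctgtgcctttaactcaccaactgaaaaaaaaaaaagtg
Tnxb: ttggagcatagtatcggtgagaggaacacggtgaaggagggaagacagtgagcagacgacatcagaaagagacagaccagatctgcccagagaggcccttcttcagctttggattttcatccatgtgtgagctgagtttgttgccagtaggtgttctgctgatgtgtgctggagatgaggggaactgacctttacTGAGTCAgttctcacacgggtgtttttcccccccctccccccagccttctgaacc
Thbs2: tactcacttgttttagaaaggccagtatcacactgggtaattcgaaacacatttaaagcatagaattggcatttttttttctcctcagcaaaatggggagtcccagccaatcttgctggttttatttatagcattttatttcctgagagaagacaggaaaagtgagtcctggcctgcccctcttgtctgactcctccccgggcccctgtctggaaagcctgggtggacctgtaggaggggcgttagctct
Thbs3: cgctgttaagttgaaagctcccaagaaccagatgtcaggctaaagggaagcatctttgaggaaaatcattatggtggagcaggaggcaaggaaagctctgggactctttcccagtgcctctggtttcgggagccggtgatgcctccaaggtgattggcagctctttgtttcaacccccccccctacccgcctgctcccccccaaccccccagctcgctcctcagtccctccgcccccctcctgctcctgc

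The motifs were searched on both strands as TGANTCA for AP-1, GGAATG for TEAD, TGTGGT for RUNX, and the CArG box bound by SRF. None of these letter patterns overlaps another in these windows, since there was 1 match in all. The Tnxb window held TGAGTCA at positions -55 to -49 from the start. Of 32851 RefSeq windows of the same length, 6.75% held the AP-1 letters, 12.6% the TEAD letters, 14.0% the RUNX letters and 1.47% a CArG box. A second RefSeq start of Tnc gave a further window, which held none of them. A match is a description of letters and not of binding. The Tnc, Thbs2 and Thbs3 windows lay under a peak in 10 of 10 libraries. The Tnxb window, which belongs to a start inside the Ensembl gene span, lay under a peak in 6 of 10 libraries and lacked one in the second day 3, second day 7, first week 2 and first week 4 library.

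Against uninjured fibroblasts, Tnc and Fn1 were higher at all 4 times after MI, Thbs1 from day 7 on, and Thbs2 at day 7, and no member passed the test in the lower direction. Tests were edgeR's quasi-likelihood test with Benjamini-Hochberg adjustment over all 14968 genes within a contrast, called at an adjusted p under 0.05. At day 3, 2 of 6 members were higher against 7.39% of all genes, and 0 were lower against 4.4%. At day 7, 4 of 6 were higher against 4.39% of all genes, and 0 were lower against 2.76%. At week 2, 3 of 6 were higher against 1.44% of all genes, and 0 were lower against 0.454%. At week 4, 3 of 6 were higher against 1.85%, and 0 were lower against 0.474%. The median log2 fold change of the 6 members was 0.29, 1.36, 1.59 and 1.07 at day 3, day 7, week 2 and week 4, against medians of -0.02, 0, -0.01 and 0 over all genes. These 4 comparisons share the uninjured libraries.

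**Figure D1:**
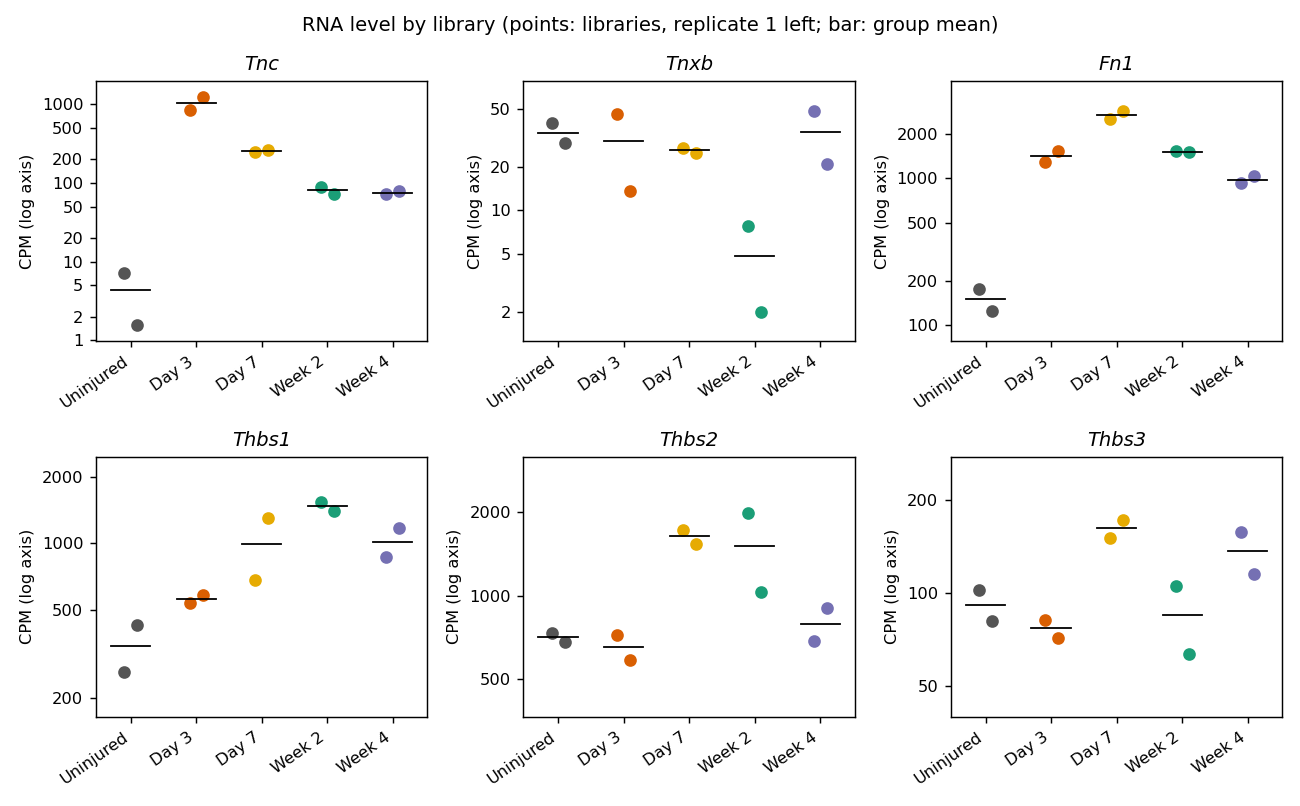
RNA level of each member in the 10 libraries, in CPM on a log axis, by group. Points are libraries with replicate 1 on the left, and bars are group means. Tnc is highest at day 3 and Fn1 at day 7, while the Thbs3 values stay between 63.4 and 173.1 CPM.

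Tnc (ENSMUSG00000028364, chr4:63959785-64047015, minus strand) showed the largest change of the 6 members at each time. Its level was 7.143 and 1.554 CPM in the uninjured libraries, 850.6 and 1227 at day 3, 247.1 and 264.8 at day 7, 89.42 and 72.91 at week 2, and 71.78 and 78.58 at week 4. Each library after MI was thus above both uninjured ones, and the order of the group means was day 3, day 7, week 2, week 4 and uninjured. The edgeR log2 fold change against uninjured was 7.90 ± 0.64 (SE; adjusted p = 0.00015) at day 3, a 238-fold difference. It was 5.88 ± 0.59 (adjusted p = 0.00044) at day 7, 4.22 ± 0.55 (adjusted p = 0.0039) at week 2 and 4.11 ± 0.54 (adjusted p = 0.005) at week 4. The size depended on the low uninjured values: without the first uninjured library the day 3 log2 fold change was 9.37, and without the second it was 7.14. All 4 calls held without each of the 10 libraries.

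Between the times after MI, Tnc was lower at week 2 than at day 3 by edgeR (log2 fold change -3.68 ± 0.52, adjusted p = 0.0028) and lower at week 4 than at day 3 (-3.79 ± 0.52, adjusted p = 0.002). By edgeR the neighbouring steps did not pass, although the day 3 libraries lay above the day 7 libraries and these above the week 2 libraries: the adjusted p was 0.084 for day 7 against day 3 and 0.13 for week 2 against day 7. DESeq2 called both steps (adjusted p = 0.00034 and 0.0076). Week 4 and week 2 differed by -0.11 ± 0.47 on the log2 scale (adjusted p = 0.97), and their ranges overlapped. The sum of macrophage markers was highest at day 7, when Tnc was below its day 3 level; the part of other cells in the Tnc level was not tested.

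Fn1 (ENSMUSG00000026193, chr1:71585520-71653200, minus strand) was highest at day 7. Its level was 175.5 and 123.8 CPM in the uninjured libraries, 1294 and 1550 at day 3, 2549 and 2889 at day 7, 1534 and 1508 at week 2, and 931.6 and 1034 at week 4. All 8 libraries after MI lay above both uninjured ones, and the 2 libraries of a group after MI lay close together. The edgeR log2 fold change was 3.25 ± 0.24 (adjusted p = 2e-05) at day 3 and 4.18 ± 0.25 (adjusted p = 3.3e-06) at day 7. It was 3.35 ± 0.24 (adjusted p = 1.8e-05) at week 2 and 2.72 ± 0.24 (adjusted p = 9.5e-05) at week 4. These 4 calls also held without each of the 10 libraries. Fn1 was lower at week 4 than at day 7 (-1.47 ± 0.23, adjusted p = 0.009), a call that was lost without the second day 7 or the first week 4 library (highest adjusted p = 0.098). In the order day 7, week 2, day 3, week 4 and uninjured, week 2 against day 7 (adjusted p = 0.093), week 2 against day 3 (0.84) and week 4 against day 3 (0.14) did not pass by edgeR. DESeq2 called the first of these (adjusted p = 0.0086). Macrophage markers also had their highest sum at day 7, and their part in the Fn1 level was not tested. Counts per gene do not separate the splice forms of fibronectin.

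**Figure D2:**
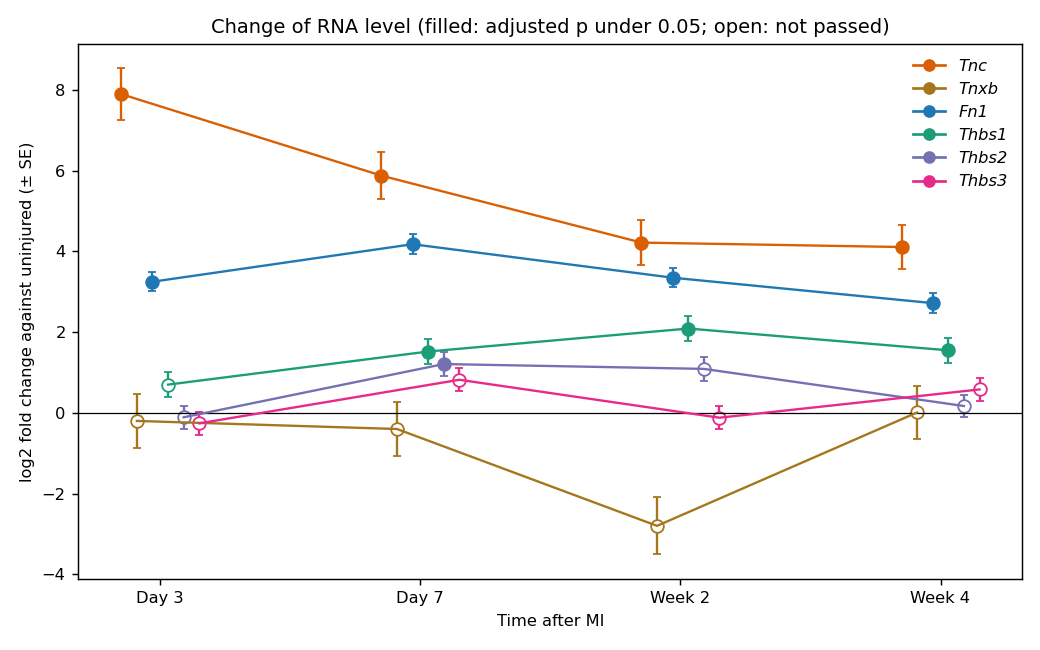
log2 fold change of each member against uninjured (vertical axis, with the SE of the edgeR fit) at the 4 times after MI. Filled points passed at an adjusted p under 0.05 and open points did not. Tnc falls from 7.90 at day 3 to 4.11 at week 4, Fn1 is highest at day 7 with 4.18, and Thbs1 is highest at week 2 with 2.09.

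Thbs1 (ENSMUSG00000040152, chr2:118111876-118127133, plus strand) passed against uninjured at 3 of the 4 times, where Thbs2 passed at 1 and Thbs3 at 0. Its level was 263.6 and 427.5 CPM in the uninjured libraries, 540.4 and 582.9 at day 3, 686.1 and 1298 at day 7, 1535 and 1402 at week 2, and 862.7 and 1168 at week 4. All 8 libraries after MI were above both uninjured ones, and the day 7 and week 4 ranges overlapped. The edgeR log2 fold change was 0.70 ± 0.31 (adjusted p = 0.18) at day 3, 1.52 ± 0.31 (adjusted p = 0.013) at day 7, 2.09 ± 0.32 (adjusted p = 0.0045) at week 2 and 1.55 ± 0.31 (adjusted p = 0.023) at week 4. The week 2 call held without each of the 10 libraries. The day 7 call was lost without the first uninjured or the second day 7 library (highest adjusted p = 0.14), and the week 4 call without the first uninjured or the second week 4 library (highest adjusted p = 0.12). Thbs1 was also higher at week 2 than at day 3 (1.39 ± 0.31, adjusted p = 0.016), which was lost without either day 3 library (highest adjusted p = 0.08). In the order week 2, week 4, day 7, day 3 and uninjured, no step between neighbours passed by edgeR. Platelets store thrombospondin-1, and the 8 platelet and megakaryocyte markers summed to 6.13 and 12.54 CPM in uninjured, 57.17 and 61.58 at day 3, 17.18 and 30.99 at day 7, 12.6 and 23.46 at week 2, and 10.15 and 13.54 at week 4. Their part in the Thbs1 level was not tested.

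Thbs2 (ENSMUSG00000023885, chr17:14665500-14694235, minus strand) encodes the other trimeric thrombospondin and passed by edgeR at day 7 against uninjured. Its level was 732.7 and 684.1 CPM in the uninjured libraries, 723.5 and 585.9 at day 3, 1732 and 1540 at day 7, 1980 and 1030 at week 2, and 687.4 and 901.6 at week 4. The day 7 and week 2 libraries lay above all others, and the uninjured, day 3 and week 4 ranges overlapped. The edgeR log2 fold change was 1.21 ± 0.29 (adjusted p = 0.024) at day 7, lost without any 1 of the 2 uninjured and 2 day 7 libraries (highest adjusted p = 0.13). It was 1.09 ± 0.29 (adjusted p = 0.088) at week 2, and without the second week 2 library, the one that stood apart, it was 1.48 (adjusted p = 0.013). Without the first week 2 library it was 0.55 (adjusted p = 0.32), and over the fits without 1 library the adjusted p reached 0.37. DESeq2 called Thbs2 at week 2 (1.09, adjusted p = 0.0043), and week 2 and day 7 differed by -0.12 by edgeR (adjusted p = 0.9). At day 3 it was -0.11 ± 0.28 (adjusted p = 0.86) and at week 4 it was 0.17 ± 0.28 (adjusted p = 0.9). Thbs2 was higher than at day 3 both at day 7 (1.32 ± 0.29, adjusted p = 0.043) and at week 2 (1.20 ± 0.29, adjusted p = 0.02). The first of these was lost without any day 3 or day 7 library (highest adjusted p = 0.29), and the second without the second day 3 or the first week 2 library (highest adjusted p = 0.14).

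Thbs3 (ENSMUSG00000028047, chr3:89215180-89226837, plus strand) passed in 0 of 11 contrasts by edgeR, while 5 had an unadjusted p under 0.05 and DESeq2 called 3. Its level was 102.2 and 81.1 CPM in the uninjured libraries, 82.04 and 71.45 at day 3, 151.1 and 173.1 at day 7, 105.8 and 63.4 at week 2, and 158.2 and 115.4 at week 4. The day 7 and week 4 libraries lay above the uninjured ones and their ranges overlapped each other. The log2 fold change against uninjured was -0.26 ± 0.28 at day 3, 0.82 ± 0.28 at day 7 (adjusted p = 0.11), -0.12 ± 0.28 at week 2 and 0.58 ± 0.28 at week 4 (adjusted p = 0.42). Day 7 against day 3, at 1.08 ± 0.28 (adjusted p = 0.087), passed with DESeq2 at an adjusted p of 0.011.

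Tnxb (ENSMUSG00000033327, chr17:34660457-34719815, plus strand) had the largest standard errors of the 6 members in comparisons with week 2 (0.70 to 0.71 on the log2 scale). Its level was 39.61 and 28.84 CPM in the uninjured libraries, 46.07 and 13.69 at day 3, 26.92 and 24.78 at day 7, 7.771 and 2.025 at week 2, and 48.27 and 20.85 at week 4. Both week 2 libraries lay below all others, and the uninjured, day 3 and week 4 ranges overlapped. Week 2 against uninjured gave -2.80 ± 0.71 by edgeR (adjusted p = 0.087), which passed with DESeq2 (adjusted p = 0.0017). Without 1 library at a time it ranged from -4.06 to -2.14, with an adjusted p from 0.032 to 0.36, and passed in 3 of 10 fits; the highest p was without the second week 2 library. Against day 3, week 2 was lower (-2.61 ± 0.71, adjusted p = 0.041), a call lost in 6 of the 10 fits that left out 1 library, those without the first or second uninjured, the first day 3, the first or second day 7, or the second week 2 library (highest adjusted p = 0.23). At day 3, day 7 and week 4 the log2 fold change against uninjured was -0.20 ± 0.66, -0.40 ± 0.66 and 0.01 ± 0.66, and none passed.

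Between the times after MI, members were again read against all genes. For day 7 against day 3, 1 of 6 was higher and 0 lower, against 0.822% and 0.555% of all genes. For week 2 against day 3, 2 of 6 were higher and 2 lower, against 3.81% and 5.59% of all genes. For week 4 against day 3, 0 of 6 were higher and 1 lower, against 5.84% and 7.52%, and for week 4 against day 7, 0 of 6 were higher and 1 lower, against 0.895% and 1.52%. For week 2 against day 7 edgeR called 0 of 6 members against 0.648% of all genes. There 4 had an unadjusted p under 0.05, and DESeq2 called 4 against 7.49% of all genes. For week 4 against week 2 edgeR called 0 of 6 against 0.608%. There 4 had an unadjusted p under 0.05, and DESeq2 called 3 against 6.69% of all genes. No share over all genes was taken for the unadjusted p. With all times after MI averaged, Tnc (5.53 ± 0.55, adjusted p = 0.00052), Fn1 (3.37 ± 0.22, adjusted p = 1e-05) and Thbs1 (1.47 ± 0.27, adjusted p = 0.0077) were higher, 3 of 6 against 2.81% of all genes, and 0 were lower against 2.16%. The Thbs1 call was lost without the first uninjured library (adjusted p = 0.067).

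The genes whose course over the 10 RNA libraries was most like each member were taken by the smallest root mean square difference of centred log2 CPM among 9043 other genes. For Tnc they were Ccl9 (0.347), a chemokine gene, Spp1 (0.911), which encodes osteopontin, and Clca3a1 (0.911), where the median gene was at 2.791. Ccl9 had a mean of 0.587 CPM in uninjured and 146 CPM at day 3. For Fn1 they were the collagen genes Col12a1 (0.403), Col1a2 (0.42) and Col5a2 (0.424), against a median of 1.524. Col1a2, a fibrillar collagen chain, had a mean of 996.5 CPM in uninjured and 8597 CPM at day 7, the time at which Fn1 was highest too. For Thbs1 they were Adamts6 (0.219), which encodes a secreted metalloprotease, Myo10 (0.363) and Hip1 (0.373), against a median of 0.943. For Thbs2 they were Dnmt3a (0.271), Nbea (0.306) and Vstm4 (0.329), against 0.789, and for Thbs3 they were Bcr (0.178), Os9 (0.182) and Nucb1 (0.192), against 0.692. For Tnxb they were B230217C12Rik (0.568), Gpam (0.629) and Arhgef10 (0.64), against 1.386. Likeness here rests on 10 libraries in 5 groups that all genes share.

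The related gene lists that follow are read against the shares of all genes given above, at day 3, day 7, week 2 and week 4 in turn: 7.39%, 4.39%, 1.44% and 1.85% higher, and 4.4%, 2.76%, 0.454% and 0.474% lower. Among 10 tested relatives of these proteins, 2 rose and 3 fell at day 3, 4 rose and 1 fell at day 7, 1 rose at week 2 and 3 rose at week 4. Their median log2 fold change was 0.19, 0.69, 0.03 and 1.06, against -0.02, 0, -0.01 and 0 over all genes. Comp, a cartilage protein of the pentameric thrombospondin branch, was at 86.3 and 61.43 CPM in uninjured and 3844 and 3045 CPM at week 4. Its log2 fold change there was 5.54 ± 0.62 by edgeR (adjusted p = 0.0028), and its level was highest at that last time. Vtn, which encodes vitronectin, fell at day 3 (-3.47 ± 0.53, adjusted p = 0.0016), and so did Fbln1, which encodes fibulin-1 (-2.75 ± 0.35, adjusted p = 0.00059). Fbln1 went from 1074 and 864.5 CPM in uninjured to 197.7 and 91.18 CPM at day 3 and was at 2042 and 2237 CPM at week 4. Tnn, another tenascin gene of lower expression that was singled out after its values were seen, had log2 fold changes of 5.78 at day 3, 8.71 at day 7 and 6.54 at week 4, and passed at these 3 times.

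Of 27 tested receptor genes, 4 rose and 5 fell at day 3, 4 rose and 3 fell at day 7, 1 rose and 1 fell at week 2, and 1 rose at week 4. The single calls at week 2 and week 4 compare with 1.44% and 1.85% of all genes higher. The list's median log2 fold change was -0.02, 0.29, 0.28 and 0.57, against -0.02, 0, -0.01 and 0 over all genes. Itga5, which encodes the fibronectin receptor chain, was at 55.7 and 24.76 CPM in uninjured and 142.8 and 150.4 CPM at day 3 (log2 fold change 1.87 ± 0.42 by edgeR, adjusted p = 0.014). Sdc1, which encodes the proteoglycan syndecan-1, was highest at week 4 (2.06 ± 0.3, adjusted p = 0.0038). Itga8, the alpha chain of another integrin that binds fibronectin and tenascin-C, fell at day 3 (-3.34 ± 0.88, adjusted p = 0.031), from 42.75 and 39.99 CPM to 2.375 and 5.765 CPM. The receptor list thus held genes moving in both directions at day 3 and day 7.

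Of 29 tested genes of fibril assembly and adhesion, 10 rose and 3 fell at day 3, 8 rose and 1 fell at day 7, 6 rose at week 2 and 8 rose at week 4. The list's median log2 fold change was 0.9, 0.74, 0.19 and 0.81 at these times, against -0.02, 0, -0.01 and 0 over all genes. Spp1 was at 33.58 and 22.03 CPM in uninjured and 1001 and 1690 CPM at day 3 (5.60 ± 0.34 by edgeR, adjusted p = 3.1e-06). Lox, which encodes the collagen cross-linking enzyme lysyl oxidase, rose most at day 7 (4.83 ± 0.32, adjusted p = 6.7e-06), and so did Postn, which encodes periostin (4.54 ± 0.35, adjusted p = 1.8e-05).

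Of 23 tested transcription factors and cofactors, 3 rose and 3 fell at day 3, and 3, 3 and 2 rose at day 7, week 2 and week 4. Their median log2 fold change was 0.02, -0.07, 0.06 and 0.22, near those of all genes at the first 3 times. Runx1 rose at all 4 times and most at week 2 (3.32 ± 0.37 by edgeR, adjusted p = 0.00045), from 18.12 and 7.504 CPM to 114.5 and 141.8 CPM. Egr1 and Jun, immediate early genes, fell at day 3 (both -1.88, with adjusted p = 0.036 and 0.0042). Of 14 tested genes of the TGF-beta system, 3 rose and 3 fell at day 3, 4 rose and 1 fell at day 7, 3 rose at week 2 and 2 rose at week 4, with a median of -0.29, 0.48, 0.70 and 0.87. Ltbp2, which encodes a latent TGF-beta binding protein, was highest at week 4 (4.90 ± 0.36, adjusted p = 3.2e-05). Fbn2, which encodes fibrillin-2, rose at day 7 (4.34 ± 0.46, adjusted p = 0.00019), and the co-receptor gene Tgfbr3 fell there (-2.83 ± 0.42, adjusted p = 0.0017).

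**Figure D3:**
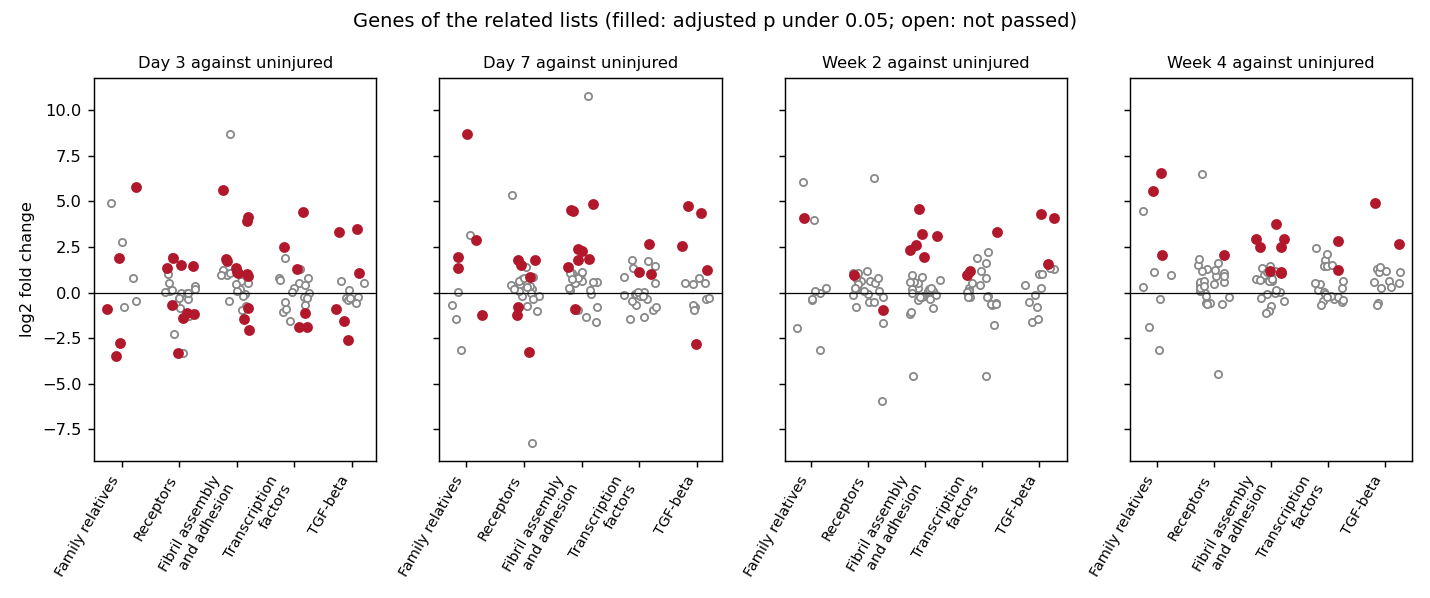
log2 fold change against uninjured of each tested gene of the 5 related lists (horizontal axis) at the 4 times after MI; horizontal scatter within a list has no meaning. Filled points passed at an adjusted p under 0.05. At day 3 the fibril assembly and adhesion list has 10 filled points above 0 and 3 below.

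In the ATAC-seq lists, 104 of the 148 regions in the 6 windows were held by both libraries of at least 1 group. A region was called gained at a time if both libraries of that time and neither uninjured library held a peak there, and lost in the reverse case, with no test since a group had 2 lists. Gained regions numbered 29 (27.9%) at day 3, 22 (21.2%) at day 7, 13 (12.5%) at week 2 and 4 (3.85%) at week 4, against 26%, 14%, 7.66% and 4.16% of such regions over the genome. The day 3 and week 4 shares were near those of the genome. Lost regions numbered 4, 4, 3 and 2 (3.85%, 3.85%, 2.88% and 1.92%), against 1.64%, 3.57%, 4.01% and 5.55% over the genome. All lost regions belonged to the Tnxb window. When every list was cut to its 63882 peaks of lowest q, 12, 12, 12 and 7 regions were gained at the 4 times, against 12.3%, 9.22%, 6.61% and 5.18% of regions over the genome, out of 89 regions in the windows.

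A region at a start of each member was held by every library. The Tnc start lay in chr4:64038388-64049325, the Fn1 start in chr1:71644649-71657689, the Thbs1 start in chr2:118108094-118133036, the Thbs2 start in chr17:14688260-14695184, the Thbs3 start in chr3:89208497-89217541 and the Tnxb start in chr17:34653114-34664753, each held by 10 of 10 libraries. By the authors' fold enrichment over local background, these were among the stronger peaks of their lists. Of the peaks in a list, 0.141% to 0.57% lay above the Thbs3 start, 0.93% to 7.14% above the Fn1 start and 6.22% to 22.4% above the Tnc start, depending on the list. The Tnxb start region also covers part of the neighbouring gene Atf6b. At the other annotated start of Tnxb, inside its span, chr17:34669369-34670662 was held by 6 of 10 libraries. The region chr17:34671532-34672486, 0.997 kb past that same start, was held by 2 of 10.

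**Figure D4:**
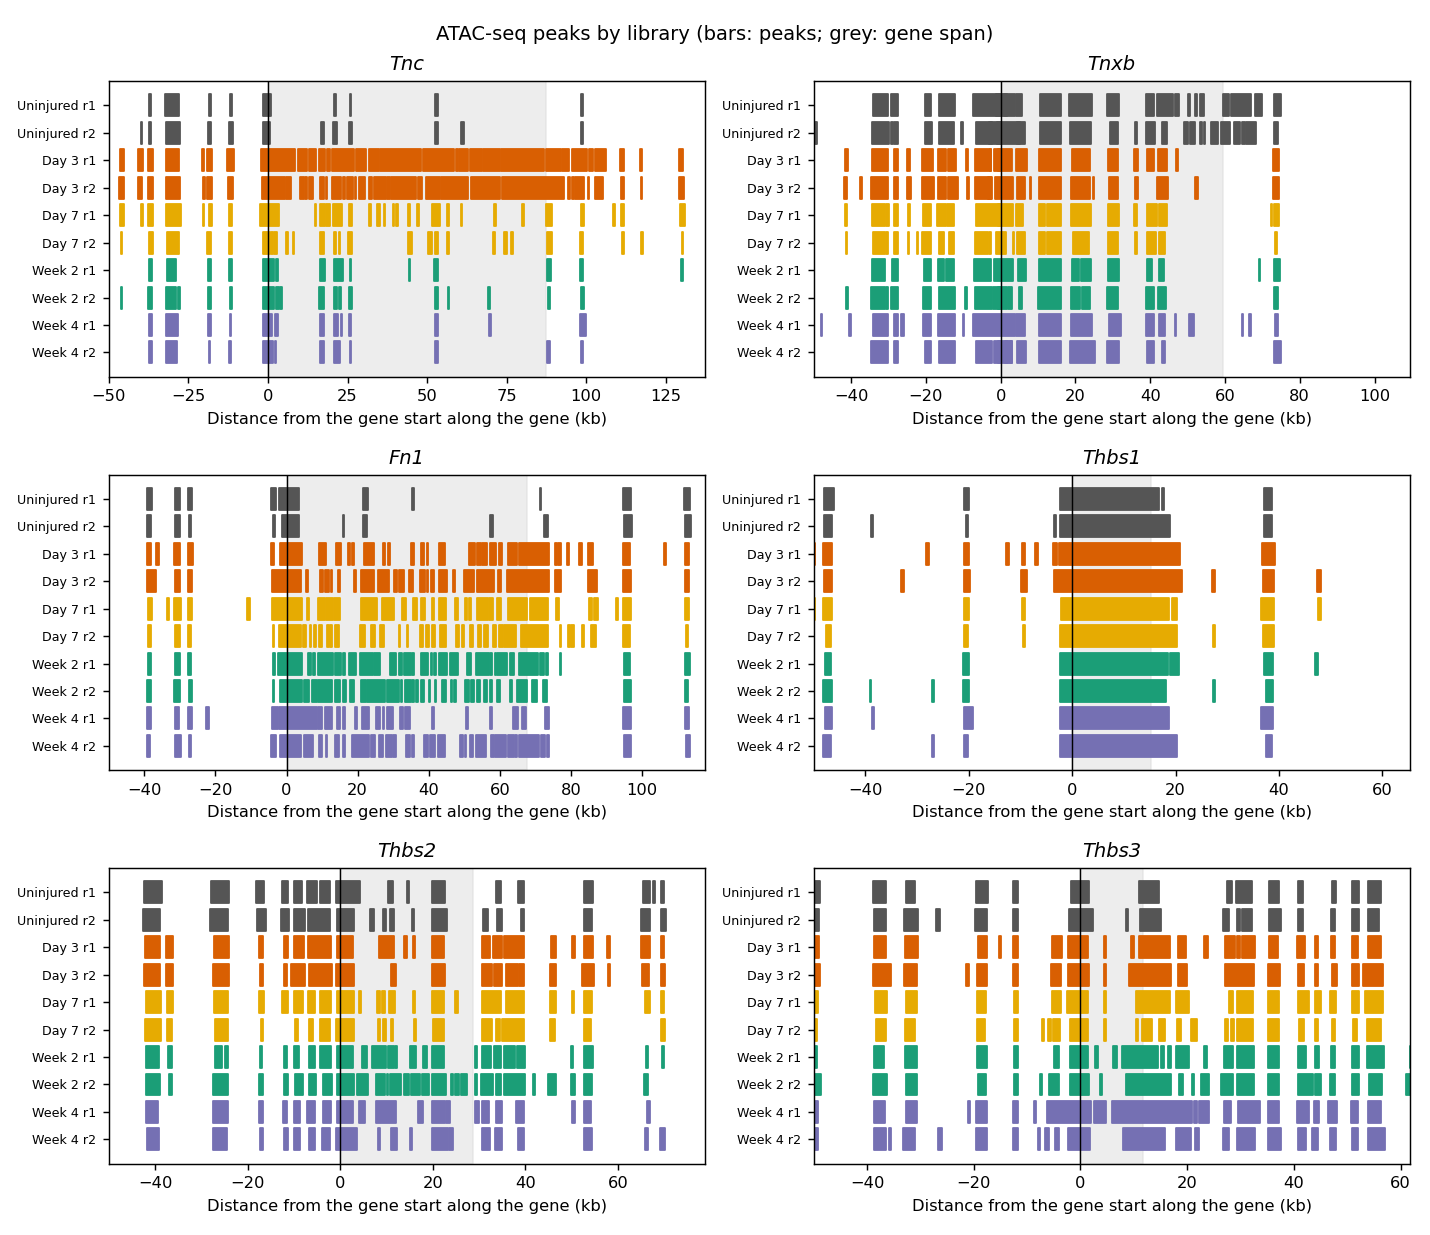
ATAC-seq peaks of the 10 libraries around each member, by distance from the gene start along the direction of the gene in kb. Bars are peaks, grey marks the gene span, and r1 and r2 are the replicates. Peaks cover 89.3% and 79.8% of the Tnc span at day 3 and 3.34% and 5.98% in uninjured, while the Thbs1 span lies wholly under peaks in every library.

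Around Tnc, peaks spread over the gene at day 3 and had largely receded by week 2. Of its 87231 bases, 3.34% and 5.98% lay under peaks in the uninjured libraries, 89.3% and 79.8% at day 3, 22.6% and 14.6% at day 7, 10.4% and 10.8% at week 2, and 8.26% and 7.92% at week 4. The day 3 values stood far above all others, and every library after MI was above both uninjured ones. Gained regions numbered 13 of 23 (56.5%) at day 3, 6 (26.1%) at day 7, 1 (4.35%) at week 2 and 0 at week 4. The shares over the genome were 26%, 14%, 7.66% and 4.16%. Of the 13, 7 lay in the gene, 2 upstream and 4 downstream, and at week 4 none was held by both libraries and 2 by 1 library. The longest was chr4:63952111-63973612 at the 3′ end, gained at day 3, day 7 and week 2. The strongest of the 13 by the authors' fold was chr4:64092227-64093743, upstream at -45.2 kb from the start, with 18.2 and 17.7 in the 2 day 3 lists, where 20.2% and 19.6% of peaks were stronger. That region and part of the Tnc span also overlap 8030451A03Rik, the only other gene of the window.

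Around Fn1, most gained regions lay in the gene body. Peaks covered 7.86% and 8.89% of the 67681 bases of the span in uninjured, 41.4% and 56.7% at day 3, 54.5% and 41.5% at day 7, 64.1% and 59.0% at week 2, and 36.7% and 56.8% at week 4. All libraries after MI were above the uninjured ones, and the groups after MI overlapped except for week 2, which was highest. Gained regions numbered 7 of 19 (36.8%) at day 3, 9 (47.4%) at day 7, 7 (36.8%) at week 2 and 4 (21.1%) at week 4. The shares over the genome were 26%, 14%, 7.66% and 4.16%. At day 3, 5 lay in the gene and 2 downstream, at day 7, 7 in the gene and 2 downstream, and at week 2 all 7 in the gene. The 2 downstream regions were the same at day 3 and day 7 and overlap the neighbouring gene Atic. The 4 gained at week 4 lay in the gene, namely chr1:71600273-71604357, chr1:71611205-71613097, chr1:71637924-71639735 and chr1:71640134-71644385. They lay 48.8, 40.1, 13.5 and 8.81 kb downstream of the start, and 3 of them were held by all 8 libraries after MI.

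Around Tnxb, the window held the 4 lost regions, all at or past the 3′ end of the gene. They were weak in the uninjured lists, with an authors' fold of 3.43 to 5.31 and 67.4% to 91.6% of peaks stronger, and with only peaks of a −log10 q of at least 5, 0 regions were lost at day 3, 1 at day 7, 0 at week 2 and 1 at week 4. chr17:34719693-34722475 overlaps the end of Tnxb and the pseudogene Cyp21a2-ps, and chr17:34723790-34725274 follows it. chr17:34729374-34731783 and chr17:34732253-34740470 overlap C4b, which encodes complement component C4. chr17:34723790-34725274 and chr17:34729374-34731783 were held by both uninjured libraries and by no library after MI. C4b, named after its values were seen, was at 34.54 and 15.28 CPM in uninjured and 113.9 and 67.86 CPM at week 4 (log2 fold change 1.87 ± 0.55, edgeR adjusted p = 0.13), and passed at no time. The Tnxb span itself was covered to 49.0% and 44.2% in uninjured and to between 35.3% and 44.0% after MI.

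Few regions were gained around the thrombospondin genes. The share gained at day 3 and at day 7 was largest for Thbs1, but it rested on 2 of 6 regions. At day 3 it was near that of the genome. No Thbs1 region was gained at week 2 or week 4. The Thbs1 span was covered to 100% in every library. Its window gained 2 of 6 regions (33.3%) at day 3 and at day 7, against 26% and 14% over the genome. Both lay upstream and overlap the gene Gm13986. The nearer to the start, chr2:118101947-118103082 at -8.79 kb, was held by all 4 day 3 and day 7 libraries and by no other. The Thbs2 window gained 3, 2, 3 and 0 of 19 regions at the 4 times (15.8%, 10.5%, 15.8% and 0%), against 26%, 14%, 7.66% and 4.16% over the genome. Among them chr17:14730387-14731962, upstream at -36.1 kb from the start, was held by all 6 libraries of day 3, day 7 and week 2 and by no uninjured or week 4 library. The Thbs3 window gained 1, 1, 2 and 0 of 16 regions (6.25%, 6.25%, 12.5% and 0%), against the same 26%, 14%, 7.66% and 4.16% over the genome. Gained at day 3, day 7 and week 2, chr3:89217720-89220043 lay 2.54 kb inside the gene and was held by 7 of 8 libraries after MI. Peaks covered 20.2% and 28.2% of the Thbs3 span in uninjured, 26.7% and 40.3% at day 3, 24.3% and 19.7% at day 7, 55.8% and 44.5% at week 2, and 85.3% and 46.8% at week 4. The week 2 and week 4 libraries lay above all others, and the uninjured, day 3 and day 7 ranges overlapped.

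To allow for lists of different size, the bases of each window under peaks were divided by all bases under peaks in the library. On this scale (bases per megabase under peaks) the Tnc window held 102.2 and 124.8 in uninjured, 728.3 and 574.4 at day 3, 275.0 and 235.0 at day 7, 167.9 and 167.6 at week 2 and 141.1 and 138.3 at week 4. All 8 libraries after MI were above both uninjured ones, yet the exact two-sided permutation test of 2 against 8 libraries gave p = 0.22 (adjusted over the 6 windows 0.37), with values after MI from 138.3 to 728.3. The Fn1 window held 157.2 and 136.2 in uninjured and between 313.2 and 502.7 after MI, with a median of 420.0. The Tnxb window held 551.7 and 503.2 in uninjured and between 285.9 and 418.5 after MI, with a median of 348.8. For Fn1, higher in 8 of 8 libraries after MI, and for Tnxb, lower in 8 of 8, the exact permutation p was 0.022, the smallest that 45 splits allow, and 0.067 after adjustment, so neither passed. The adjusted exact permutation p was 0.89 for Thbs1 and for Thbs2 and 0.37 for Thbs3.

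**Figure D5:**
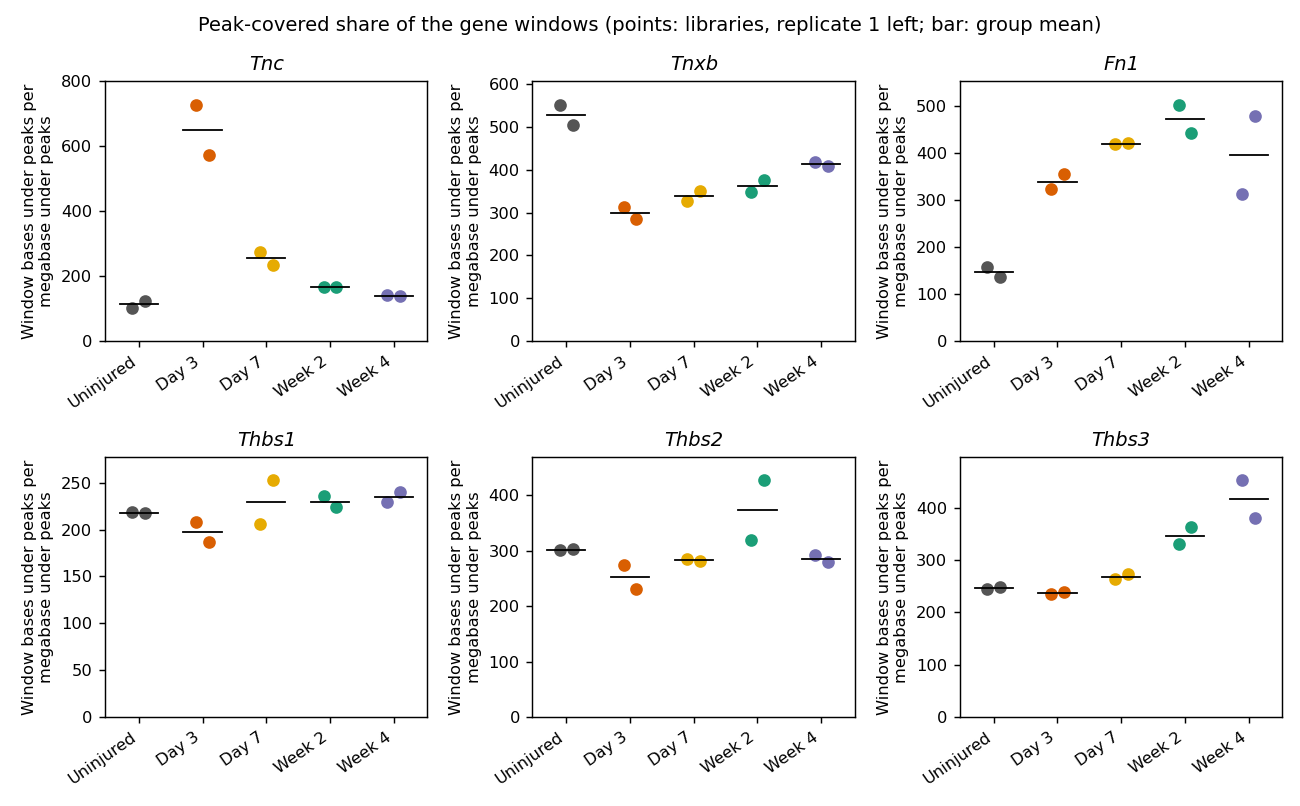
Bases of each window (gene span and 50 kb on either side) under peaks per megabase under peaks in the library, by group. Points are libraries with replicate 1 on the left, and bars are group means. The Tnc window is highest at day 3 with 728.3 and 574.4, all libraries after MI lie above uninjured for Fn1, and all lie below it for Tnxb.

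Among the windows of all genes, the Tnc window ranked near the top at day 3 and the Fn1 window at week 2 and week 4. At day 3 the mean share of the Tnc window was 5.74 times that in uninjured, where the median window was at 0.985 times, and 48 of 21092 gene windows had a higher ratio. The Tnc ratio was 2.25 at day 7, 1.48 at week 2 and 1.23 at week 4, with 571, 1552 and 3454 windows higher. The Fn1 ratio was 2.31 at day 3, 2.86 at day 7, 3.22 at week 2 and 2.70 at week 4, with 721, 276, 70 and 60 windows higher. The Thbs3 ratio was 0.961, 1.09, 1.41 and 1.69 at the 4 times, and the Tnxb ratio was 0.569, 0.642, 0.687 and 0.783. Neighbouring windows overlap, and this ranking was added after the data were seen. Both libraries of a time lay above both uninjured libraries in 2, 3, 5 and 4 of the 6 windows at day 3, day 7, week 2 and week 4, against 31.1%, 30.3%, 26.7% and 26.6% of all gene windows. Both lay below in 4, 2, 1 and 2 of the 6, against 30.2%, 26.2%, 24.6% and 20.4%.

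Set side by side, the RNA level and the covered share had their highest group at the same time for Tnc, at day 3, and at different times for Fn1, at day 7 and week 2. For Thbs3 the highest mean RNA level was at day 7 and the highest covered share at week 4. The Tnxb window was lowest at day 3, whereas its RNA was lowest at week 2. No test links the 2 assays, whose libraries are not paired in the labels. In these bulk samples, fewer cells with a transcript and less transcript per cell cannot be told apart.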

How the data were processed

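Per the labels' protocols, hearts were digested with collagenase and dispase, sorting gates were set on wild-type cells without eGFP, and 10000 cells were used for RNA. The deposited RNA values are expected counts, estimated for each gene and unscaled. The submitters' processing notes list Bowtie2 2.3, STAR 2.5.3a, Trim Galore 0.6, MACS2, FastQC and DESeq2, and mm10 and GRCm38 as builds; the counting program, strand and peak thresholds were not stated. Each deposited peak list covers 1 library and gives a score, a fold enrichment (ratio), the −log10 of p and q and the summit offset.

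Counts were rounded and fitted in edgeR 4.0.16 (R 4.3.3; TMM, filterByExpr by group, robust quasi-likelihood, group only, all 10 libraries, 5 residual degrees of freedom), with DESeq2 1.42.0 as an alternative. 0 columns were unmapped. The code was tested on simulated data. PCR reads without molecular identifiers are not independent molecules. Peaks on chromosomes 1 to 19 and X were merged where they shared at least 1 base. Positions are on GRCm38. Strand came from RefSeq promoter windows for 4 genes and from background knowledge for Fn1 and Thbs1. Overlapping and antisense genes cannot be told apart without strand. All 6 members were named, and from each list up to 3 called genes of largest change with a mean log2 CPM of at least 3. Members, lists and tests were chosen with earlier results of these data known. Alternatives were other size factors, no low-count filter, DESeq2, a replicate block, stricter or equal-sized peak lists, a 50% overlap, a 10 kb flank, and leaving out each library.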

Additional observations from a re-analysis of the deposited data

How the results depend on the processing

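With RLE size factors, a replicate block, no filter on low counts or DESeq2, none of the 22 member calls of the report was lost, and no value changed sign past the threshold; 13 of the 22 also held without each of the 10 libraries. Over all tested genes, same-numbered libraries barely deviated together (correlations from -0.0181 to 0.0288 over 10 group pairs). Each of the 10 libraries correlated most with a same-numbered one, within these small values. The 2 libraries of a group deviate from their mean in mirror image, so they always give the same outcome. The count of 10 therefore does not show pairing. Replicate 1 was above replicate 2 in every group for Tnxb, and for no other member. Whether same-numbered libraries share a factor that acts on few genes was not tested. With the replicate block, 4 member calls were added. Tnxb passed at week 2 against uninjured (edgeR adjusted p = 0.0093). The members called numbered 2 for week 4 against day 3 (Thbs3 added). They numbered 1 for week 2 against day 7 and 1 for week 4 against week 2 (Tnxb in both). Of all genes, 2.03%, 13.5%, 0.762% and 0.842% were called with the block in these 4 contrasts, in this order. With no filter on low counts, members called numbered 5 for week 2 against uninjured, 5 for day 7 against day 3, 3 for week 4 against day 3, 3 for week 2 against day 7, 3 for week 4 against day 7 and 2 for week 4 against week 2. Of all genes, 4.36%, 4.46%, 15.3%, 5.63%, 7.15% and 5.21% were called without the filter in these contrasts, in this order. With DESeq2 the members called numbered 5 for week 2 against uninjured, 4 for day 7 against day 3, 3 for week 4 against day 3, 4 for week 2 against day 7, 3 for week 4 against day 7 and 3 for week 4 against week 2. DESeq2 called 5.83%, 6.74%, 22.3%, 7.49%, 9.3% and 6.69% of all genes in the same order. Fits without 1 library left a lone library in its group, and the share of all genes called changed between these fits too. Numbers of members called are thus not compared between them. For day 7 against uninjured, the log2 fold change then ranged from 5.14 to 7.35 for Tnc and from 3.93 to 4.45 for Fn1. It ranged from 0.98 to 1.9 for Thbs1 and from 1.1 to 1.28 for Thbs2. For day 7 against day 3 it ranged from 1.19 to 1.48 for Thbs2, and for week 4 against day 7 from -1.55 to -1.38 for Fn1.

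For ATAC-seq, all tests of the covered share kept their side of the threshold, which none passed. This says little about stability, since the tests had little room to pass. With all libraries the exact permutation p cannot fall below 0.022 (45 splits). At that floor the Fn1 and Tnxb windows still had an adjusted p of 0.067. Without 1 uninjured library an exact test of 1 against 8 cannot pass. With peaks of a −log10 q of at least 5, the windows had 86 regions. Day 3 lost 0, day 7 gained 12 and lost 1, week 2 lost 0, and week 4 gained 1 and lost 1. The genome shares were 1.87% lost at day 3, 11.3% gained and 4.82% lost at day 7. They were 4.92% lost at week 2, and 2.84% gained and 7.77% lost at week 4. With the same number of peaks in every list, the windows had 89 regions. Day 3 gained 12 and lost 8, day 7 gained 12, week 2 lost 5 and week 4 gained 7. The genome shares were 12.3% gained and 8.06% lost, 9.22% gained, 7.33% lost and 5.18% gained, in this order. With an overlap of at least 50% of the region, the windows had 91 regions. Day 7 gained 9, week 2 lost 7, and week 4 gained 7 and lost 7. The genome shares were 12.8% gained, 8.03% lost, and 4.6% gained and 8.23% lost. With a flank of 10 kb, which covers 51 such regions, day 3 gained 16 and day 7 gained 13, against 26% and 14% over the genome. Leaving out 1 library at a time, a lone library then stands for its group, and the windows had 106 to 125 regions. Gained regions ranged from 28 to 48 at day 3, 13 to 25 at week 2 and 4 to 17 at week 4. The genome shares gained ranged from 23.9% to 36.4%, 6.64% to 14.6% and 3.61% to 11.5%. Lost regions ranged from 4 to 15 at day 3, 4 to 16 at day 7, 3 to 16 at week 2 and 2 to 11 at week 4. The genome shares lost ranged from 1.5% to 4.95%, 3.1% to 8.38%, 3.48% to 9.42% and 4.82% to 11.5%. The cause of these differences was not tested.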
